A study of Mus musculus with 12 samples.

Results

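The comparison described here was made between 6 of the 12 RNA-seq libraries of the series: 3 of spleen regulatory T cells (Tregs) carrying the T cell receptor (TCR) 4-8 and 3 of spleen Tregs carrying the TCR 12-4.4m1. These libraries were chosen by the tissue and the TCR in their titles. The mice, 6.8 weeks old, were NOD, a strain prone to autoimmune diabetes. They were retrogenic: TCR genes were put into bone marrow, which then formed the blood cells of the mouse, and the design text calls them two-TCR mice. Insulin is the antigen of both receptors, and the affinity of 4-8 is high and that of 12-4.4m1 low. Both groups were sorted Tregs of the same strain, age and tissue, and the labels name no other allele or treatment. Each affinity is represented by 1 TCR, so the effect of affinity and that of the particular receptor cannot be told apart. The labels do not say which markers were sorted on, whether a mouse carried cells of both TCRs, or whether each library of a group was from its own mouse. The p-values therefore measure the spread between these libraries, which may be technical. Of 24417 gene symbols listed once in the table, 9108 had a mean normalized count of at least 10 over the 6 libraries, as the authors gave it, and were tested.

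A TCR binds peptide presented by MHC molecules, and its affinity for that ligand sets how strongly the cell is stimulated. Tregs are CD4 T cells that depend on the transcription factor Foxp3 and restrain immune responses through inhibitory receptors, cytokines, consumption of IL-2 and cytotoxic granules. They can also take up programmes of the helper T cells they control: Th1-type Tregs carry genes shared with interferon-producing and cytotoxic cells, while Th2- and Th17-type Tregs carry the chemokine receptors Ccr4 and Ccr6 and the nuclear receptor Rora. Insulin is made in the pancreatic islets, so the spleen is not the main site of the antigen.

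Values are regularized log (rlog) values, a log2 scale on which the authors' transform pulls genes of low count towards their mean. A difference is the mean of 4-8 minus the mean of 12-4.4m1 on that scale, with the standard error (SE) of a limma fit, and a fold is 2 to the power of that difference. Genes of the Treg label were expressed in every library. Foxp3 was 9.90, 9.86 and 9.86 in 4-8 replicates 1 to 3 and 9.72, 9.54 and 9.94 in 12-4.4m1 replicates 1 to 3. The IL-2 receptor chain Il2ra was 9.04, 8.83 and 9.24 in the 4-8 libraries and 9.01, 8.78 and 9.21 in the 12-4.4m1 libraries, and the inhibitory receptor Ctla4 was 8.19, 8.66 and 8.16 in 4-8 and 7.78, 8.14 and 8.32 in 12-4.4m1. By limma none of the 14 core Treg genes tested passed the threshold of an adjusted p of 0.05. The difference was 0.14 ± 0.12 SE (limma adjusted p = 0.835) for Foxp3, 0.04 ± 0.13 SE (adjusted p = 0.971) for Il2ra and 0.26 ± 0.15 SE (adjusted p = 0.721) for Ctla4. At an unadjusted p under 0.05, 2 other core genes were higher, Lrrc32 (0.455) and Entpd1 (0.434). At that level 3 were lower, Nt5e (-0.481), Capg (-0.397) and Nrp1 (-0.425). Of all genes tested, 3.49% were higher and 4.44% lower at that level. Of the markers that the table holds for CD8 T cells (2 of 2), gamma-delta T cells (4 of 7), NK cells (9 of 9), plasma cells (5 of 6), neutrophils (6 of 7), erythroid cells (7 of 7) and platelets (5 of 5), none reached the count filter. Of 6 markers listed for conventional CD4 T cells, 4 reached it (Tnfsf8, Bhlhe40, Cd40lg and Dpp4), so the filter does not show that such cells were absent. Markers such as Klra4, Klra7, Klra8, Ebf1, Pax5, Cd14, Ins1 and Ins2 were listed at 0, but so was the ribosomal protein gene Rpl26, which cells generally use, so a listed 0 need not mean absence. The summed linear level of 10 B cell markers ranged from 669 to 1010 in 4-8 and from 686 to 1165 in 12-4.4m1. That of 9 myeloid markers ranged from 537 to 614 and from 497 to 591 in the same order, and both ranges overlapped. Each sum rested mostly on 1 gene. Cd74, which all cells with MHC class II express, had a mean normalized count of 818.1 of the 861.1 summed over the B cell markers, and the lysosomal protease gene Ctss 520.1 of the 558.5 summed over the myeloid markers. In bulk samples such as these, fewer cells of a type and less RNA per cell cannot be told apart.

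Sex-linked transcripts differed between libraries of the same group, Xist in both groups and Ddx3y and Eif2s3y mainly in 12-4.4m1. Xist, the RNA that silences an X chromosome in female cells, was 7.33, 8.39 and 9.46 in 4-8 replicates 1 to 3 and 8.70, 10.92 and 10.74 in 12-4.4m1 replicates 1 to 3. It was lower in 4-8 as a group (difference -1.73 ± 0.38 SE, limma adjusted p = 0.0394), but 4-8 replicate 3 lay above 12-4.4m1 replicate 1, and the groups overlapped. In the authors' deposited tables the log2 fold change of Xist was -0.27 by DESeq2 (adjusted p = 0.9998), while its Cuffdiff q was 0.00793. Ddx3y, a Y-linked helicase gene, was 7.40, 7.25 and 7.17 in the 4-8 libraries and 7.50, 6.44 and 6.40 in the 12-4.4m1 libraries, and the Y-linked translation factor gene Eif2s3y was 7.26, 7.30 and 7.39 in 4-8 and 7.29, 6.72 and 6.72 in 12-4.4m1. Thus 12-4.4m1 replicates 2 and 3 had more Xist and less of both Y-linked genes than each of the other 4 libraries. All 6 libraries had rlog values above 0 for both kinds of gene. The transform pulls values towards a gene's mean, so these values do not show that every library held transcripts of both kinds. None of the 4 Y-linked genes tested passed (Ddx3y difference 0.49 ± 0.19 SE, limma adjusted p = 0.428; Eif2s3y 0.41 ± 0.14 SE, adjusted p = 0.356; Uty 0.39 ± 0.15 SE, adjusted p = 0.454; Kdm5d -0.04 ± 0.18 SE, adjusted p = 0.984). Xist was the only gene called of 271 tested genes on chromosome X. When each library was left out in turn, 3 of the 6 fits kept the call (limma adjusted p = 0.127 to 0.350 without 4-8 replicate 1 and 12-4.4m1 replicates 2 and 3), and its difference was -0.31 with 12-4.4m1 replicate 1 as the only library of its group. The sex of the mice is not given in the sources used here. What part sex-linked differences have in the other results was not tested, but the fits that bear on it are given after them.

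**Figure D1:**
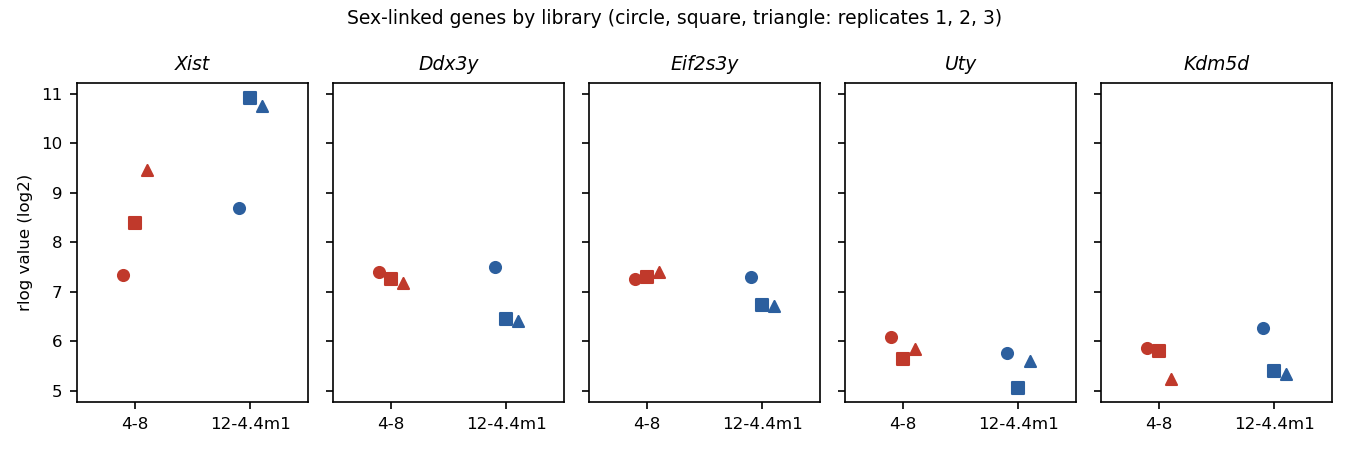
The rlog value (log2, vertical axis) of Xist and 4 Y-linked genes in each spleen library, by TCR; red is 4-8, blue is 12-4.4m1, and circles, squares and triangles are replicates 1, 2 and 3. The blue square and triangle are highest for Xist (10.92 and 10.74) and lowest for Ddx3y (6.44 and 6.40) and Eif2s3y (both 6.72).

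Of the 9108 genes, 19 (0.209%) rose and 20 (0.22%) fell in 4-8 relative to 12-4.4m1, or 39 in all (0.428%). An unadjusted p under 0.05 was found for 722 genes (7.93%), of which 318 (3.49%) were higher and 404 (4.44%) lower. The authors' deposited DESeq2 table called 21 genes at 0.05 (0.231%), all among the 39. Their Cuffdiff table called 80 of the 7072 genes it tested with an FPKM above 0 in both groups (1.13%), of which 31 were among the 39. The median difference over all genes was -0.001 and their median SE was 0.12, and 54 genes differed by more than 0.5 in size. The 6 libraries did not overlap between groups in 38 of the 39, Xist being the exception, and in 13.3% of all genes tested. The differences ran from 0.53 to 1.17 among the genes that rose and from -0.35 to -1.73 among those that fell. Folds of rlog values are compressed. Of the 39 genes, all had a wider ratio of FPKM (fragments per length of transcript and depth of library) in the authors' deposited table than in rlog values, and the median log2 ratio of those FPKM was 1.42 for the 19 and -1.18 for the 20, against median rlog differences of 0.67 and -0.64.

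**Figure D2:**
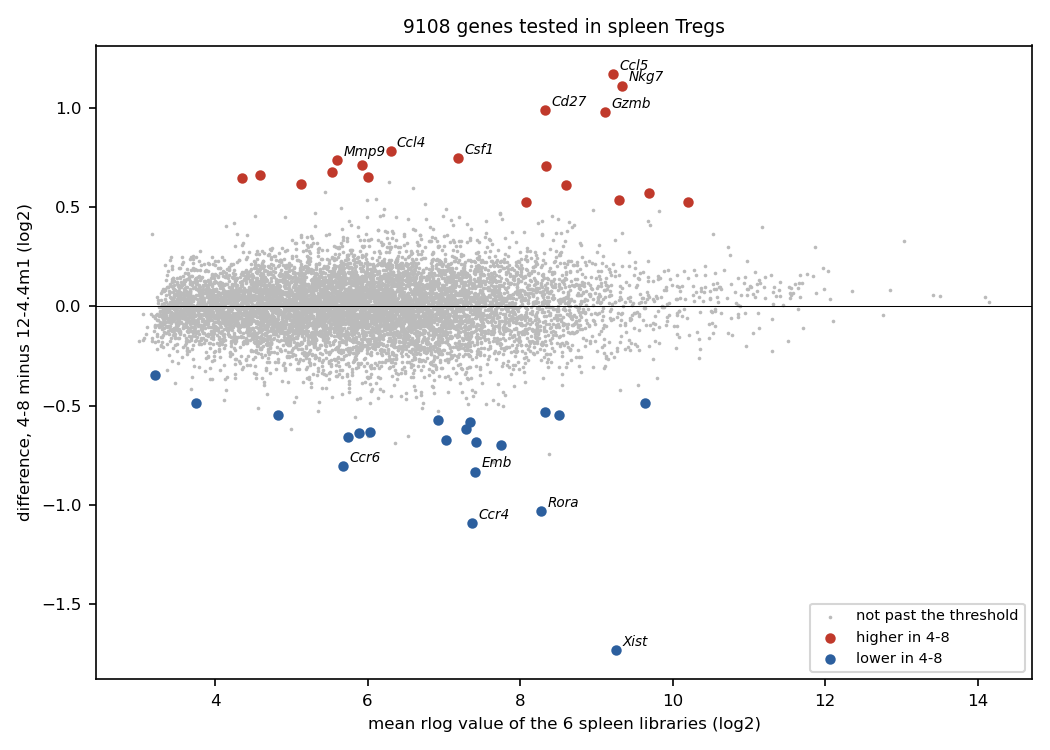
Difference in rlog value, 4-8 minus 12-4.4m1 (log2, vertical axis), against the mean rlog value of the 6 libraries (log2, horizontal axis) for 9108 genes, with those past the limma threshold in red (higher in 4-8, 19 genes) and blue (lower, 20 genes). Ccl5 at 1.17 is the highest point and Xist at -1.73 the lowest, and genes of both directions lie at low and high mean levels.

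Genes of cytotoxic granules and killing stood among the genes that rose. Of 16 such genes tested, 4 rose and none fell, against 0.209% and 0.22% of all genes tested, with a median of 0.14. The list was written with earlier results of these data known, so its count is a description. Gzmb, which encodes the protease granzyme B, was 9.22, 9.85 and 9.73 in 4-8 replicates 1 to 3 and 8.86, 8.55 and 8.46 in 12-4.4m1 replicates 1 to 3, so the lowest 4-8 library lay above the highest 12-4.4m1 library. It was 1.97-fold higher in 4-8 (difference 0.98 ± 0.14 SE, limma adjusted p = 0.000458), and its FPKM in the authors' deposited table was 470 in 4-8 and 194 in 12-4.4m1. Nkg7, a membrane protein of cytotoxic granules, was 9.39, 10.18 and 10.10 in the 4-8 libraries and 8.87, 9.29 and 8.18 in the 12-4.4m1 libraries. The gap between the groups was narrow, with 4-8 replicate 1 just above 12-4.4m1 replicate 2, and the mean was 2.16-fold higher in 4-8 (difference 1.11 ± 0.19 SE, limma adjusted p = 0.00535). Both Gzmb and Nkg7 still passed whichever library was left out. Fasl, the ligand that triggers death through the receptor Fas, was 4.70, 4.76 and 5.31 in 4-8 and 4.18, 4.31 and 4.29 in 12-4.4m1. It stood highest in 4-8 replicate 3 (difference 0.66 ± 0.13 SE, limma adjusted p = 0.0128), and without that library it did not pass (limma adjusted p = 0.183). Its mean normalized count was low (27.1), and the DESeq2 adjusted p of the authors' deposited table was 0.9998. Ctsd, which encodes the lysosomal protease cathepsin D, was 8.74, 9.07 and 8.94 in 4-8 replicates 1 to 3 and 8.60, 8.26 and 8.04 in 12-4.4m1 replicates 1 to 3. It rose by 0.61 ± 0.14 SE (limma adjusted p = 0.0394) and passed in 2 of 6 fits (limma adjusted p = 0.150 to 0.195 without 4-8 replicates 2 and 3 and 12-4.4m1 replicates 2 and 3). Of the others, the granule-associated protease Ctsw had a difference of 0.35 ± 0.12 SE (limma adjusted p = 0.326) and the transcription factor Eomes one of 0.33 ± 0.13 SE (adjusted p = 0.454). Stx11 pointed the other way (difference -0.36 ± 0.15 SE, limma adjusted p = 0.482), and none of these passed. Of the 16 differences, 13 were above 0 and 3 below, and that of the perforin gene Prf1 was 0.11.

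Genes of secreted factors were a further group with calls. Of 14 tested, 5 rose and 0 fell, against 0.209% and 0.22% of all genes tested, with a median of 0.14. This list too was written with earlier results of these data known, so its count is a description. Ccl5 and Ccl4 are also in the Th1 list, as is Nkg7 of the cytotoxic list. Ccl5, a chemokine that draws T cells and monocytes, was 9.70, 10.01 and 9.70 in the 4-8 libraries and 8.68, 9.02 and 8.20 in the 12-4.4m1 libraries. The 4-8 libraries lay together above every 12-4.4m1 library, 2.25-fold higher in 4-8 on average (difference 1.17 ± 0.15 SE, limma adjusted p = 6.21e-05), and the call held whichever library was left out. Its FPKM of 2190 in 4-8 and 782 in 12-4.4m1 in the authors' deposited table was the highest, per length, of the 39 genes in both groups. Ccl4, another chemokine, was 6.71, 6.73 and 6.64 in 4-8 and 5.49, 6.51 and 5.73 in 12-4.4m1. Here 12-4.4m1 replicate 2 lay close to the 4-8 libraries, which were themselves close together (difference 0.78 ± 0.17 SE, limma adjusted p = 0.0382). Ccl4 passed only in the fit without that library (limma adjusted p = 0.000210) of the 6 (limma adjusted p = 0.0794 to 0.135 without 4-8 replicates 1, 2 and 3 and 12-4.4m1 replicates 1 and 3), and the authors' deposited table gave a DESeq2 adjusted p of 0.9998. Csf1, the growth factor of macrophages, was 7.46, 7.74 and 7.50 in 4-8 replicates 1 to 3 and 7.05, 6.58 and 6.82 in 12-4.4m1 replicates 1 to 3, with no overlap (difference 0.75 ± 0.13 SE, limma adjusted p = 0.00669). It did not pass without 12-4.4m1 replicate 2, the library in which it was lowest (limma adjusted p = 0.0858). Mmp9, a protease of the extracellular matrix, was 5.86, 6.15 and 5.91 in the 4-8 libraries and 5.47, 4.93 and 5.31 in the 12-4.4m1 libraries. It was likewise lowest in 12-4.4m1 replicate 2 (difference 0.74 ± 0.14 SE, limma adjusted p = 0.00880), and passed in 4 of 6 fits (limma adjusted p = 0.0591 and 0.112 without 4-8 replicate 2 and 12-4.4m1 replicate 2). Pglyrp1, a peptidoglycan-binding antimicrobial protein, was 8.55, 8.80 and 8.72 in 4-8 and 8.09, 7.87 and 7.99 in 12-4.4m1, and passed in all 6 (difference 0.71 ± 0.12 SE, limma adjusted p = 0.00465). The members that did not pass included the lymphotoxin gene Ltb (difference 0.27 ± 0.12 SE, limma adjusted p = 0.531) and Tnf (-0.23 ± 0.11 SE, adjusted p = 0.644), which pointed in opposite directions.

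Receptors made up most of the remaining genes that rose. Cd27, a costimulatory receptor of the TNF receptor family, was 8.77, 8.82 and 8.88 in 4-8 replicates 1 to 3 and 7.92, 7.59 and 8.0 in 12-4.4m1 replicates 1 to 3. The spread within each group was small beside the gap, with Cd27 1.99-fold higher in 4-8 (difference 0.99 ± 0.13 SE, limma adjusted p = 6.21e-05), and it still passed whichever library was left out. Lag3, an inhibitory receptor that binds MHC class II, was 6.05, 6.41 and 6.39 in the 4-8 libraries and 5.47, 5.64 and 5.60 in the 12-4.4m1 libraries. It was the 1 called gene of 10 co-inhibitory receptors (difference 0.71 ± 0.13 SE, limma adjusted p = 0.00669) and of the 6 fits missed the threshold in that without 4-8 replicate 3 (limma adjusted p = 0.0817). It did not pass without both libraries numbered 2 either (limma adjusted p = 0.122). The other inhibitory receptors of this list did not pass, with differences of -0.36 ± 0.13 SE (adjusted p = 0.379) for Btla, 0.24 ± 0.17 SE (adjusted p = 0.781) for Tigit and 0.26 ± 0.15 SE (adjusted p = 0.721) for Ctla4. Cxcr5, the chemokine receptor for B cell follicles, was 5.74, 5.82 and 6.07 in 4-8 and 5.28, 5.06 and 5.26 in 12-4.4m1 (difference 0.67 ± 0.13 SE, limma adjusted p = 0.00880). Cxcr5 passed in 4 of 6 fits (limma adjusted p = 0.141 and 0.0901 without 4-8 replicate 3 and 12-4.4m1 replicate 2). Slamf7, a receptor of the SLAM family, was 6.13, 6.34 and 6.51 in 4-8 replicates 1 to 3 and 5.63, 5.71 and 5.68 in 12-4.4m1 replicates 1 to 3. The 12-4.4m1 libraries lay close together, below every 4-8 library (difference 0.65 ± 0.13 SE, limma adjusted p = 0.0128), and 3 of 6 fits kept the call (limma adjusted p = 0.0513 to 0.181 without 4-8 replicates 2 and 3 and 12-4.4m1 replicate 2).

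Il2rb and Il10ra, a chain each of the IL-2 and IL-10 receptors, also rose. Il2rb, the beta chain of the IL-2 receptor, was 9.84, 9.85 and 10.24 in the 4-8 libraries and 9.47, 9.22 and 9.52 in the 12-4.4m1 libraries, highest in 4-8 replicate 3 (difference 0.57 ± 0.13 SE, limma adjusted p = 0.0391). It passed in 4 of 6 fits (limma adjusted p = 0.369 and 0.235 without 4-8 replicate 3 and 12-4.4m1 replicate 2). Il10ra, the ligand-binding chain of the IL-10 receptor, was 8.24, 8.36 and 8.41 in 4-8 and 7.72, 7.91 and 7.80 in 12-4.4m1. Its groups were well apart (difference 0.53 ± 0.12 SE, limma adjusted p = 0.0431), and it passed in none of the 6 fits (limma adjusted p = 0.0648 to 0.300). These were the 2 called genes of 16 listed under IL-2 receptor and STAT5 signalling, where 0.209% of all genes tested were called higher. Il10ra is, however, a chain of another receptor. Of the 16 differences, 13 were above 0, against 49.7% of all genes tested, and their median was 0.15. The other chains of the IL-2 receptor did not pass, with differences of 0.04 for Il2ra and -0.14 for Il2rg (limma adjusted p = 0.971 and 0.810). The kinase Pim1 had a difference of 0.43 ± 0.14 SE (limma adjusted p = 0.273) and the feedback inhibitor Socs3 one of 0.25 ± 0.13 SE (adjusted p = 0.678), and neither passed.

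The other 4 genes that rose were Plac8, Tbc1d4, Gimap7 and Ptpn18. Plac8 was 4.36, 4.99 and 4.68 in 4-8 replicates 1 to 3 and 4.06, 3.94 and 4.09 in 12-4.4m1 replicates 1 to 3 (difference 0.65 ± 0.12 SE, limma adjusted p = 0.0107). Its mean normalized count was 23.0, and it passed in 3 of 6 fits (limma adjusted p = 0.0549 to 0.0975 without 4-8 replicates 2 and 3 and 12-4.4m1 replicate 2). Tbc1d4, a Rab GTPase-activating protein, was 5.39, 5.10 and 5.79 in the 4-8 libraries and 4.75, 4.78 and 4.92 in the 12-4.4m1 libraries (difference 0.61 ± 0.14 SE, limma adjusted p = 0.0401). Tbc1d4 passed in 2 of 6 fits (limma adjusted p = 0.0605 to 0.396 without 4-8 replicates 1 and 3 and 12-4.4m1 replicates 1 and 2). Gimap7, a GTPase of a family of lymphocyte proteins with similar sequences, was 9.41, 9.64 and 9.65 in 4-8 and 9.22, 8.99 and 8.88 in 12-4.4m1 (difference 0.54 ± 0.12 SE, limma adjusted p = 0.0401). It passed in 2 of 6 fits (limma adjusted p = 0.138 to 0.288 without 4-8 replicates 2 and 3 and 12-4.4m1 replicates 2 and 3), and its relative Gimap3 just missed the threshold (difference 0.48 ± 0.12 SE, limma adjusted p = 0.0733). Ptpn18, a tyrosine phosphatase, was 10.69, 10.49 and 10.21 in 4-8 replicates 1 to 3 and 10.06, 9.80 and 9.95 in 12-4.4m1 replicates 1 to 3 (difference 0.53 ± 0.12 SE, limma adjusted p = 0.0453). Ptpn18 passed in 2 of 6 fits (limma adjusted p = 0.0819 to 0.280 without 4-8 replicates 1 and 2 and 12-4.4m1 replicates 2 and 3). Among the 19 genes that rose, 4-8 replicate 1 was the lowest library of its group for 16, with a mean rlog value of 7.63 over the 19, against 7.85 and 7.86 in replicates 2 and 3 and 6.99 to 7.10 in the 12-4.4m1 libraries.

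Among the genes that fell were Ccr4, of the Th2 list, and Ccr6 and Rora, of the Th17 list. Ccr4, the receptor of the chemokines Ccl17 and Ccl22, was 6.78, 6.91 and 6.79 in the 4-8 libraries and 7.89, 8.03 and 7.85 in the 12-4.4m1 libraries. It had the smallest adjusted p of all genes and was 2.13-fold lower in 4-8 (difference -1.09 ± 0.12 SE, limma adjusted p = 1.67e-05), with an FPKM of 23.0 in 4-8 and 75.2 in 12-4.4m1 in the authors' deposited table. Ccr6, the receptor of Ccl20, was 5.27, 5.17 and 5.39 in 4-8 and 6.0, 6.24 and 6.02 in 12-4.4m1, or 1.75-fold lower (difference -0.80 ± 0.12 SE, limma adjusted p = 0.00109). Rora, a nuclear receptor of Th17 cells and innate lymphoid cells, was 7.76, 7.72 and 7.81 in 4-8 replicates 1 to 3 and 8.54, 9.02 and 8.82 in 12-4.4m1 replicates 1 to 3, or 2.04-fold lower (difference -1.03 ± 0.13 SE, limma adjusted p = 6.21e-05). In each of these 3 genes every 4-8 library lay below every 12-4.4m1 library, and each still passed whichever library was left out. Of 5 Th17 genes tested, 2 fell (Rora and Ccr6) and none rose, against 0.22% and 0.209% of all genes tested. The median of -0.61 was the value of Ahr, given below. Of 5 Th2 genes tested Ccr4 fell, with a median of -0.46. In each list 2 differences were above 0, and none of these passed. Among the Th17 genes they were 0.30 ± 0.13 SE (limma adjusted p = 0.51) for Il21r and 0.08 for Maf. Among the Th2 genes they were 0.11 for Il4ra and 0.08 for Gata3. Below the count filter were 9 of 14 listed Th17 genes, with Il17a and Il22 listed at 0, and 4 of 9 listed Th2 genes. The aryl hydrocarbon receptor Ahr was 6.86, 6.84 and 7.16 in the 4-8 libraries and 6.90, 7.66 and 8.13 in the 12-4.4m1 libraries (difference -0.61 ± 0.19 SE, limma adjusted p = 0.234) and did not pass. Its 12-4.4m1 libraries were widely spread, and with 12-4.4m1 replicate 1 alone the difference was 0.06. The IL-33 receptor Il1rl1 did not pass either (difference -0.78 ± 0.19 SE, limma adjusted p = 0.0752), its groups overlapping at 7.86 in 4-8 replicate 1 and 7.65 in 12-4.4m1 replicate 3. Leaving out 1 library moved the difference of Il1rl1 between -1.09 and -0.54, and it passed in 2 of those 6 fits.

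Emb, which encodes the membrane glycoprotein embigin, was 7.36, 6.69 and 6.92 in 4-8 and 7.97, 7.88 and 7.62 in 12-4.4m1. It was 1.78-fold lower (difference -0.83 ± 0.15 SE, limma adjusted p = 0.00565) and still passed whichever library was left out. Cd226, an activating receptor that competes with Tigit for its ligands, was 5.88, 5.48 and 5.36 in 4-8 replicates 1 to 3 and 6.47, 6.25 and 5.92 in 12-4.4m1 replicates 1 to 3. The groups were barely separated, and Cd226 was the called gene nearest the threshold (difference -0.64 ± 0.15 SE, limma adjusted p = 0.0476). It passed in 2 of 6 fits (limma adjusted p = 0.146 to 0.369 without 4-8 replicates 2 and 3 and 12-4.4m1 replicates 1 and 2). Tnfsf8, which encodes the ligand of CD30, was 5.95, 5.37 and 5.82 in the 4-8 libraries and 6.48, 6.25 and 6.30 in the 12-4.4m1 libraries (difference -0.63 ± 0.14 SE, limma adjusted p = 0.0394). Tnfsf8 passed in 2 of 6 fits (limma adjusted p = 0.0810 to 0.313 without 4-8 replicates 2 and 3 and 12-4.4m1 replicates 1 and 2). Il18rap, a chain of the IL-18 receptor and the 1 member of the Th1 genes that fell, was 6.58, 6.58 and 6.77 in 4-8 and 7.41, 7.12 and 7.11 in 12-4.4m1 (difference -0.57 ± 0.13 SE, limma adjusted p = 0.0396). Il18rap passed in 1 of 6 fits (limma adjusted p = 0.0916 to 0.168 without 4-8 replicates 1, 2 and 3 and 12-4.4m1 replicates 1 and 2). Fcrl1, a receptor of the Fc receptor-like family best known from B cells, was 4.45, 4.69 and 4.53 in 4-8 replicates 1 to 3 and 5.0, 5.11 and 5.19 in 12-4.4m1 replicates 1 to 3 (difference -0.54 ± 0.11 SE, limma adjusted p = 0.0260). Fcrl1 passed in 2 of 6 fits (limma adjusted p = 0.0608 to 0.177 without 4-8 replicates 1 and 3 and 12-4.4m1 replicates 2 and 3). Other costimulatory receptors did not pass, with differences of 0.43 ± 0.11 SE (adjusted p = 0.114) for Cd2 and -0.30 ± 0.12 SE (adjusted p = 0.458) for Slamf6. Of 14 tested, 1 rose (Cd27) and 1 fell (Cd226), with a median of -0.07.

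Of the other genes that fell, Tiam1 and Sema6d belong to the list of Rac GTPase and semaphorin signalling, and Dst, Tspan13 and Wls to no list. Tiam1, an activator of the small GTPase Rac, was 7.03, 7.08 and 7.04 in the 4-8 libraries and 7.57, 7.57 and 7.76 in the 12-4.4m1 libraries, so the 4-8 libraries lay close together (difference -0.58 ± 0.12 SE, limma adjusted p = 0.0257). It nevertheless passed in only 1 of 6 fits (limma adjusted p = 0.0591 to 0.150 without 4-8 replicates 1, 2 and 3 and 12-4.4m1 replicates 2 and 3). Sema6d, a transmembrane semaphorin, was 5.46, 5.16 and 5.63 in 4-8 and 6.27, 6.24 and 5.71 in 12-4.4m1, with 4-8 replicate 3 just under 12-4.4m1 replicate 3 (difference -0.66 ± 0.15 SE, limma adjusted p = 0.0401). Sema6d passed in 1 of 6 fits (limma adjusted p = 0.0525 to 0.254 without 4-8 replicates 1, 2 and 3 and 12-4.4m1 replicates 1 and 2). These were the 2 called genes of 16 of Rac GTPase and semaphorin signalling, whose median was -0.02. Of all genes tested, 0.22% were called lower. Dst, a cytoskeletal linker protein, was 6.67, 7.24 and 7.01 in 4-8 replicates 1 to 3 and 7.47, 7.67 and 7.65 in 12-4.4m1 replicates 1 to 3 (difference -0.62 ± 0.14 SE, limma adjusted p = 0.0394). Dst passed in 2 of 6 fits (limma adjusted p = 0.0771 to 0.262 without 4-8 replicates 1 and 3 and 12-4.4m1 replicates 2 and 3). Tspan13, a tetraspanin, was 6.75, 7.06 and 7.41 in the 4-8 libraries and 7.80, 7.53 and 7.94 in the 12-4.4m1 libraries (difference -0.68 ± 0.15 SE, limma adjusted p = 0.0367). Tspan13 passed in 3 of 6 fits (limma adjusted p = 0.0772 to 0.224 without 4-8 replicates 1 and 2 and 12-4.4m1 replicate 3). Wls, the chaperone that carries Wnt proteins to the cell surface, was 6.84, 6.72 and 6.54 in 4-8 and 7.14, 7.31 and 7.66 in 12-4.4m1 (difference -0.67 ± 0.14 SE, limma adjusted p = 0.0229). Wls passed in 2 of 6 fits (limma adjusted p = 0.0505 to 0.188 without 4-8 replicates 2 and 3 and 12-4.4m1 replicates 2 and 3).

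The nuclear and remaining genes that fell were Zfp53, Aebp2, Rbl2, Ifi203, Ankrd6 and Dscc1. Zfp53, a member of a large family of zinc finger genes with similar sequences, was 7.67, 7.34 and 7.20 in 4-8 replicates 1 to 3 and 8.07, 8.15 and 8.08 in 12-4.4m1 replicates 1 to 3 (difference -0.70 ± 0.13 SE, limma adjusted p = 0.00880). Zfp53 passed in 4 of 6 fits (limma adjusted p = 0.141 and 0.0719 without 4-8 replicate 3 and 12-4.4m1 replicate 2). Aebp2, a cofactor of the Polycomb repressive complex, was 8.24, 8.11 and 8.35 in the 4-8 libraries and 8.75, 8.69 and 8.90 in the 12-4.4m1 libraries (difference -0.54 ± 0.12 SE, limma adjusted p = 0.0394). Aebp2 passed in 1 of 6 fits (limma adjusted p = 0.0905 to 0.175 without 4-8 replicates 1, 2 and 3 and 12-4.4m1 replicates 2 and 3). Rbl2, a retinoblastoma-like repressor of the cell cycle, was 9.41, 9.47 and 9.29 in 4-8 and 9.79, 9.90 and 9.94 in 12-4.4m1 (difference -0.49 ± 0.11 SE, limma adjusted p = 0.0453). Rbl2 passed in 1 of 6 fits (limma adjusted p = 0.0591 to 0.345 without 4-8 replicates 1, 2 and 3 and 12-4.4m1 replicates 2 and 3). The interferon-inducible Ifi203 belongs to a family of near-identical neighbours, so its reads may be split or shared. It was 8.03, 8.04 and 8.09 in 4-8 replicates 1 to 3 and 8.42, 8.57 and 8.77 in 12-4.4m1 replicates 1 to 3 (difference -0.53 ± 0.12 SE, limma adjusted p = 0.0453). Ifi203 passed in 1 of 6 fits (limma adjusted p = 0.145 to 0.195 without 4-8 replicates 1, 2 and 3 and 12-4.4m1 replicates 2 and 3). Ankrd6, an ankyrin repeat protein, and Dscc1, which acts in the cohesion of sister chromatids, had mean normalized counts of 17.6 and 11.2, the lowest of the 39. Ankrd6 was 3.50, 3.55 and 3.46 in the 4-8 libraries and 3.85, 3.89 and 4.23 in the 12-4.4m1 libraries (difference -0.48 ± 0.10 SE, limma adjusted p = 0.0238). Ankrd6 passed in 3 of 6 fits (limma adjusted p = 0.0862 to 0.159 without 4-8 replicates 1 and 3 and 12-4.4m1 replicate 3). Dscc1 was 3.11, 3.01 and 2.98 in 4-8 and 3.40, 3.36 and 3.39 in 12-4.4m1 (difference -0.35 ± 0.08 SE, limma adjusted p = 0.0401). Dscc1 passed in none of the 6 fits (limma adjusted p = 0.0515 to 0.278).

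**Figure D3:**
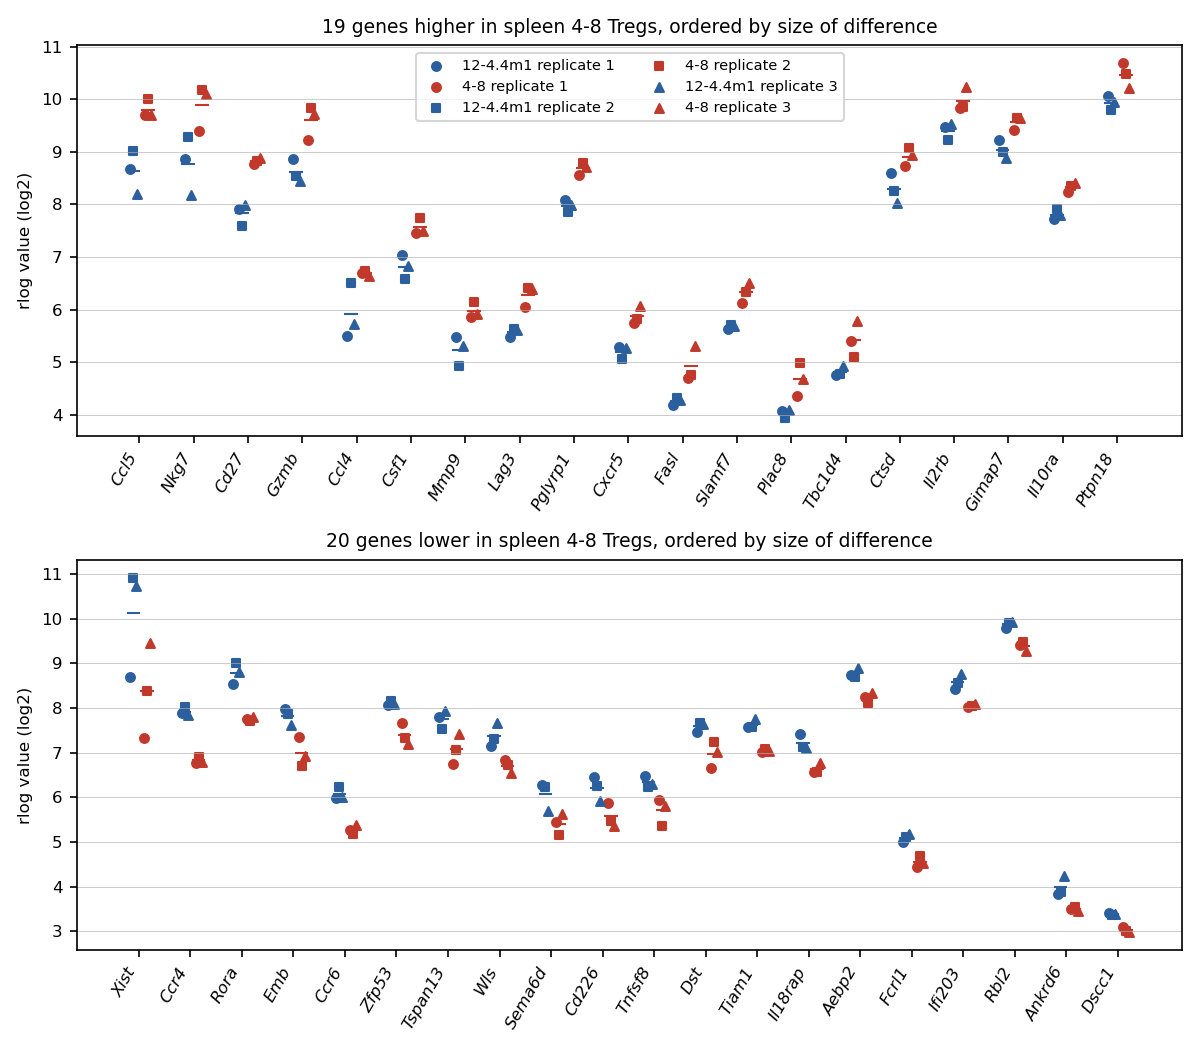
The rlog value (log2, vertical axis) of each of the 39 genes past the threshold in each of the 6 spleen libraries; red is 4-8, blue is 12-4.4m1, symbols are replicates 1 to 3 and short bars are group means. The red and blue points of a gene do not overlap except for Xist, and the gap is smallest for Cd226, Sema6d, Nkg7, Tspan13, Ccl4, Ctsd and Ptpn18.

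Near the threshold the genes differed little in their values. The 3 called genes nearest to it were Cd226, Ptpn18 and Ifi203 (limma adjusted p = 0.0476, 0.0453 and 0.0453). The 3 nearest uncalled genes were the T cell surface protein Cd7 (difference 0.53 ± 0.12 SE, limma adjusted p = 0.0522), the membrane protein Myadm (difference -0.56 ± 0.13 SE, limma adjusted p = 0.0599) and Gimap3 (0.48 ± 0.12 SE, adjusted p = 0.0733). Itgb1 and Cxcr4 had larger differences than these, with libraries that were spread within a group, and did not pass. The integrin chain Itgb1 was 8.55, 7.84 and 7.61 in 4-8 replicates 1 to 3 and 8.77, 9.13 and 8.35 in 12-4.4m1 replicates 1 to 3 (difference -0.75 ± 0.18 SE, limma adjusted p = 0.0746). Leaving out 1 library moved it between -1.02 and -0.55, and it passed in 3 of those 6 fits. The chemokine receptor Cxcr4 was 5.91, 5.51 and 5.61 in the 4-8 libraries and 7.12, 5.62 and 6.25 in the 12-4.4m1 libraries (difference -0.65 ± 0.21 SE, limma adjusted p = 0.285). Its difference lay between -1.01 and -0.26 when 1 library was left out, and it passed in 1 of those 6 fits. Without both libraries numbered 2 it was -0.92 (limma adjusted p = 0.0266) and passed.

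To set the called genes in the genome, positions are given on GRCm38 from GENCODE vM21 for the 9 genes that still passed whichever library was left out, each annotated as protein-coding. Those that rose were Ccl5 (chr11:83525778-83530518), Nkg7 (chr7:43437073-43438249), Cd27 (chr6:125232622-125237010), Gzmb (chr14:56258838-56262260) and Pglyrp1 (chr7:18871331-18890459). Those that fell were Ccr4 (chr9:114490316-114504916), Rora (chr9:68653786-69388246), Emb (chr13:117208536-117274415) and Ccr6 (chr17:8236043-8257141). Ccl5 and Ccl4 lie on the same chromosome, Ccl4 at chr11:83662584-83664683, and Lag3 at chr6:124904361-124911705 shares chromosome 6 with Cd27. Promoters are shown for 2 genes in each direction with the smallest p whose window lies outside the gene model, since these genes carry the main contrast and let a reader compare their upstream sequence. Each is the 250 bases before a RefSeq transcript start (GRCm38.p6), 5′ to 3′ on the strand of the gene: chr14:56262335-56262584, minus strand, for Gzmb; chr6:125237028-125237277, minus strand, for Cd27; chr9:68653536-68653785, plus strand, for Rora; and chr17:8235793-8236042, plus strand, for Ccr6. Capitals mark a match to a motif named below.
Gzmb: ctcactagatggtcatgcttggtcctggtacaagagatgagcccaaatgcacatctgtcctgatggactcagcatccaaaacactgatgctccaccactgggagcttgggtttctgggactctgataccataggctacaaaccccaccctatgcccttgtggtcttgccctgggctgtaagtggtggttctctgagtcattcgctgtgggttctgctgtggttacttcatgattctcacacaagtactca
Cd27: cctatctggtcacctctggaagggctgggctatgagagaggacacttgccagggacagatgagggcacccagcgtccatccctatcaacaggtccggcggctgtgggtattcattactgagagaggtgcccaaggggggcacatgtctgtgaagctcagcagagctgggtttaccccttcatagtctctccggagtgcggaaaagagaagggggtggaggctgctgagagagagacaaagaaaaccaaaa
Rora: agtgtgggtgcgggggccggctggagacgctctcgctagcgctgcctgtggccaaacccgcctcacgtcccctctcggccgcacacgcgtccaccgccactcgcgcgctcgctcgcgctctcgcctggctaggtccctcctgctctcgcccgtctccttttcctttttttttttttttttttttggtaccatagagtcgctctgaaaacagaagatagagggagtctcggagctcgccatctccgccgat
Ccr6: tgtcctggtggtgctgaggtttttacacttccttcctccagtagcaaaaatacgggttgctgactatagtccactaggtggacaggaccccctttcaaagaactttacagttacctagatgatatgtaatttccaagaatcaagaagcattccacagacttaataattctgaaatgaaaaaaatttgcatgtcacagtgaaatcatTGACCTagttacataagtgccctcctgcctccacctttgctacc

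The Rora promoter was rich in G and C (61.2%, with 26 CpG dinucleotides), while that of Ccr6 had 41.2% and 1 CpG, that of Gzmb 50.8% and 1, and that of Cd27 56.0% and 5. Both strands were searched for AGGTGT, the core bound by T-box factors such as T-bet and Eomes, and for AGGTCA, the half-site of nuclear receptors such as the product of Rora. The Ccr6 window held the latter on its minus strand (read as TGACCT above), 44 bases before the start. The other 3 windows held neither. RefSeq promoters matched 30 of the 39 genes, with 40 windows in all. AGGTGT was found in 3 of 13 windows of genes that rose (Nkg7, Pglyrp1 and Plac8) and 3 of 27 of genes that fell (Ankrd6, Emb and Sema6d), against 9.2% of the windows of all genes tested and 11.8% of all 32851 promoters. AGGTCA was found in 1 of 13 (Ctsd) and 2 of 27 (Ccr6 and Zfp53), against 10.4% and 14.0%. A match is a description of the sequence, not a binding site.

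Lists of genes, written with earlier results of these data known, show how far the called genes spread to the programmes they belong to. Of 16 Th1 genes, 3 rose (Ccl5, Nkg7 and Ccl4) and 1 fell (Il18rap), against 0.209% and 0.22% of all genes tested. The other 12 did not pass. Of the 16 differences 12 were above 0, against 49.7% of all genes, with a median of 0.23. Nkg7 was already counted above among the cytotoxic genes, and Ccl5 and Ccl4 among the secreted factors. The IL-12 receptor chain Il12rb2 was 4.39, 4.67 and 4.32 in 4-8 and 4.13, 3.98 and 4.01 in 12-4.4m1 (difference 0.42 ± 0.11 SE, limma adjusted p = 0.0959), so its libraries did not overlap although it missed the threshold. The cytokine Ifng was 4.49, 4.53 and 4.51 in 4-8 replicates 1 to 3 and 4.21, 4.38 and 4.12 in 12-4.4m1 replicates 1 to 3 (difference 0.27 ± 0.10 SE, limma adjusted p = 0.439). Of 16 suppressive mediators, Gzmb and Lag3 rose, against 0.209% of all genes tested, and 14 did not pass, with a median of 0.11. The ectonucleotidases of this list that together make adenosine pointed in opposite directions, with differences of 0.43 ± 0.12 SE (limma adjusted p = 0.157) for Entpd1, which encodes CD39, and -0.48 ± 0.13 SE (adjusted p = 0.140) for Nt5e, which encodes CD73. Lrrc32, which tethers latent TGF-beta, had a difference of 0.46 ± 0.12 SE (limma adjusted p = 0.114), the growth factor gene Areg one of -0.37 ± 0.10 SE (adjusted p = 0.155) and the IL-35 subunit gene Ebi3 one of -0.42 ± 0.15 SE (adjusted p = 0.357). Il10 did not reach the count filter.

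The TCR complex and its proximal signalling were represented by 25 genes, and none passed by limma (4 higher and 0 lower at an unadjusted p under 0.05). Of the 25 differences 22 were above 0, against 49.7% of all genes, and their median was 0.10, against -0.001 over all genes tested. Regardless of sign, the median size of a difference over all genes tested was 0.09. Genes of a list can vary together between libraries, so the count of signs was not tested. Cd247, the zeta chain of the TCR complex, was 9.19, 9.04 and 9.38 in the 4-8 libraries and 8.77, 8.78 and 8.60 in the 12-4.4m1 libraries. Its groups did not overlap (difference 0.49 ± 0.12 SE, limma adjusted p = 0.0756). The kinase Zap70, which binds that chain, had a difference of 0.37 ± 0.12 SE (limma adjusted p = 0.273), and the adaptor Sh2d2a one of 0.33 ± 0.12 SE (adjusted p = 0.428). Of 20 genes induced early after TCR stimulation, 0 passed by limma (1 higher and 3 lower at an unadjusted p under 0.05), with 8 above 0 and a median of -0.05. Of these, the phosphatase Dusp4 had a difference of 0.46 ± 0.13 SE (limma adjusted p = 0.163), while those of the surface proteins Cd83 and Cd69 were -0.46 ± 0.15 SE (adjusted p = 0.296) and -0.30 ± 0.13 SE (adjusted p = 0.521). The orphan receptor Nr4a1, a reporter of TCR signalling, was 5.28, 5.46 and 5.66 in 4-8 and 5.07, 5.54 and 5.84 in 12-4.4m1. Its groups overlapped fully (difference -0.02 ± 0.15 SE, limma adjusted p = 0.989), and the sign of this small difference turned in several of the other fits.

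Of 25 chemokine and homing receptors, Cxcr5 rose and Ccr4 and Ccr6 fell, against 0.209% and 0.22% of all genes tested. The other 22 did not pass, and the median was 0.03. Of 19 effector Treg genes Gzmb rose and none fell. The receptor Klrg1 had a difference of 0.41 ± 0.11 SE (limma adjusted p = 0.155), and the adhesion receptor Cd44 one of -0.48 ± 0.12 SE (adjusted p = 0.0914). None of 15 genes of resting T cells passed by limma (4 higher and 0 lower at an unadjusted p under 0.05), with differences of 0.37 ± 0.14 SE (limma adjusted p = 0.428) for the chromatin organizer Satb1 and 0.32 ± 0.13 SE (adjusted p = 0.448) for the repressor Bach2. Of 11 tissue repair Treg genes Rora fell, and the median was -0.27. At an unadjusted p under 0.05, 6 of the 11 were lower and 1 higher, against 4.44% and 3.49% of all genes tested. Their differences were below 0 for 8 genes and above 0 for 3. None of 22 cell cycle genes passed by limma (0 higher and 2 lower at an unadjusted p under 0.05). Of these genes 18 were below 0 (49.7% of all genes were above 0), with a median of -0.12. The proliferation marker Mki67 was 8.77, 9.06 and 8.59 in 4-8 replicates 1 to 3 and 8.81, 9.52 and 9.02 in 12-4.4m1 replicates 1 to 3 (difference -0.31 ± 0.15 SE, limma adjusted p = 0.624), highest in 12-4.4m1 replicate 2, and the cell cycle kinase Cdk1 had a difference of -0.40 ± 0.14 SE (adjusted p = 0.332).

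Stress and ribosomal genes can follow RNA quality and handling. None of 11 heat shock genes passed by limma (0 higher and 4 lower at an unadjusted p under 0.05). Of these genes 10 were below 0 (49.7% of all genes were above 0), with a median of -0.18. Their summed linear level was 3627 to 3821 in 4-8 and 4181 to 4778 in 12-4.4m1. The chaperone gene Hsp90aa1 had a difference of -0.40 ± 0.11 SE (limma adjusted p = 0.155). None of 77 ribosomal protein genes passed (0 also at an unadjusted p under 0.05). Of these genes 57 were above 0, against 49.7% of all genes, with a median of 0.06. Their summed level of 142700 to 151300 in 4-8 overlapped that of 132200 to 149200 in 12-4.4m1. The part of these levels in the other results was not tested. None of 22 interferon-induced genes (median 0.06) or of 13 glycolysis genes (median 0.08) passed by limma, with 2 and 1 higher and 0 lower at an unadjusted p under 0.05. Among the markers of other cells that were tested, Tnfsf8 was the 1 called gene of 4 of the conventional CD4 T cell list, and fell. Of these 4 differences 2 were above 0 and 2 below, and Bhlhe40 pointed the other way (difference 0.43 ± 0.13 SE, limma adjusted p = 0.231). None of 4 B cell or 3 myeloid markers passed, with 0 and 1 at an unadjusted p under 0.05 (Cd68 difference 0.26 ± 0.09 SE, limma adjusted p = 0.381). The glucagon gene Gcg, a product of islet cells, was 3.98, 3.83 and 3.84 in the 4-8 libraries and 4.15, 4.99 and 3.93 in the 12-4.4m1 libraries. It was highest in 12-4.4m1 replicate 2 and did not pass (difference -0.47 ± 0.16 SE, limma adjusted p = 0.326).

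**Figure D4:**
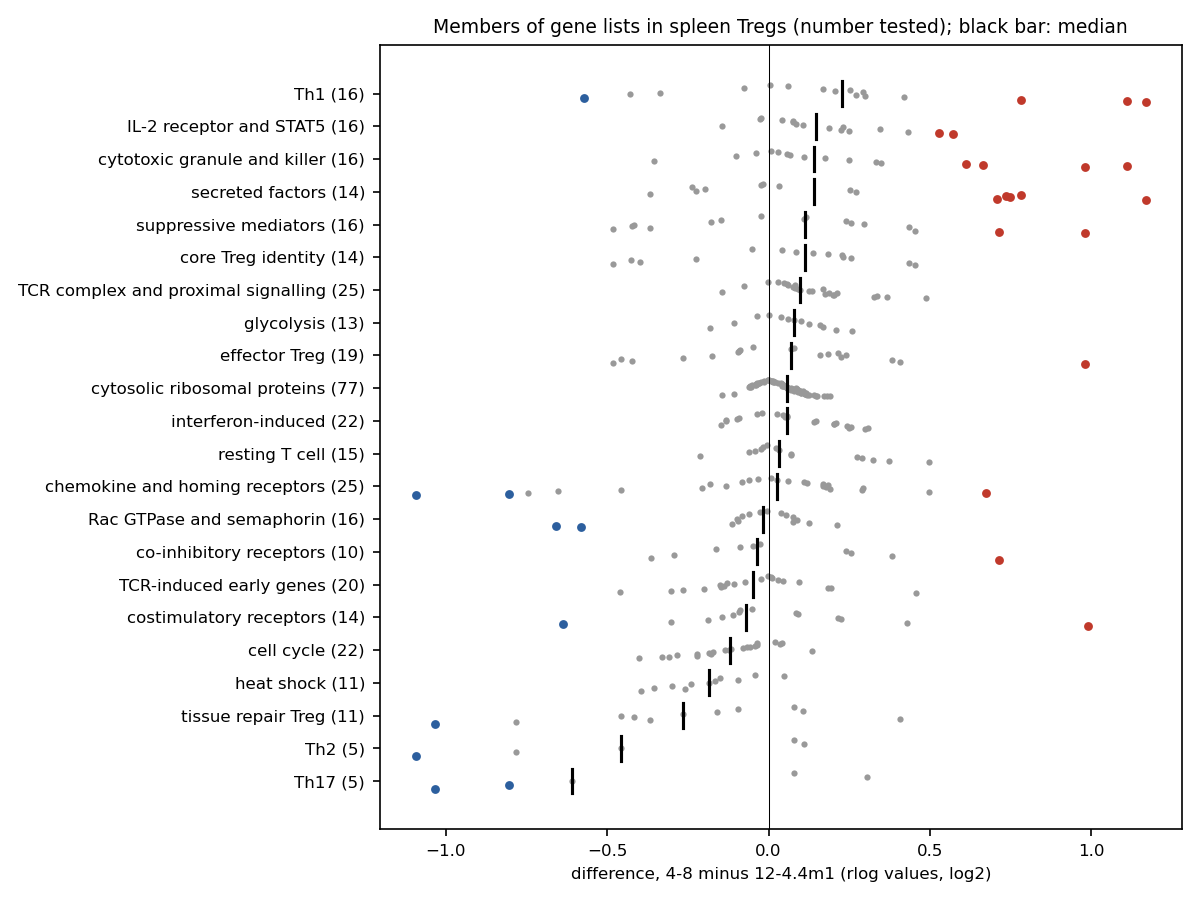
Difference in rlog value, 4-8 minus 12-4.4m1 (log2, horizontal axis), of the tested members of 22 gene lists (number tested in brackets), with members past the limma threshold in red (higher in 4-8) or blue (lower), the others in grey, and the median as a black bar. The medians lie between -0.61 for the Th17 genes and 0.23 for the Th1 genes, and most members of every list are grey.

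The same contrast in islet Tregs, from 6 columns of a table normalized on its own, was set beside that in spleen. Of these columns 5 matched a library by title, and 1 could be assigned to the 4-8 group only. Of the 39 genes, 38 were tested there, and 35 had the same sign: 17 of the 19 that rose, where 49.3% of all islet differences were above 0, and 18 of 19 that fell. Of the 38, 10 passed in islets in the same direction and 0 in the other, where 0.365% of 8212 genes passed (0.256% higher and 0.11% lower in 4-8). Without the column of no title, an alternative chosen after seeing the data, 33 had the same sign and 7 passed in the same direction. The median difference of the genes that rose in spleen was 0.67 in spleen and 0.60 in islets, and that of the genes that fell was -0.64 and -0.55. A difference was larger in islets for 12 genes. The difference of Lag3 was 0.71 ± 0.13 SE in spleen and 2.55 ± 0.21 SE in islets, that of Ccl4 0.78 ± 0.17 and 2.36 ± 0.21 SE, and that of Csf1 0.75 ± 0.13 and 1.60 ± 0.24 SE. Their mean normalized counts in spleen and islets were 65.2 and 652.8 for Lag3, 86.4 and 252.1 for Ccl4, and 156.2 and 220.4 for Csf1. The rlog pulls genes of lower count further towards their mean, and its part in these differences was not tested. Several genes that were called in spleen had a difference near 0 in islets: Cxcr5 had -0.03 ± 0.19 SE there, Mmp9 -0.22 ± 0.19 SE, Tbc1d4 0.10 ± 0.29 SE, Zfp53 -0.07 ± 0.20 SE and Dst -0.11 ± 0.22 SE. Il12rb2 and Ifng, uncalled in spleen, had differences of 1.01 ± 0.20 SE and 1.12 ± 0.21 SE in islets and passed there (limma adjusted p = 0.00958 and 0.00651), as did Areg at -1.40 ± 0.21 SE (limma adjusted p = 0.000334). Whether a difference was larger in a tissue was not tested, since the tables were normalized separately.

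**Figure D5:**
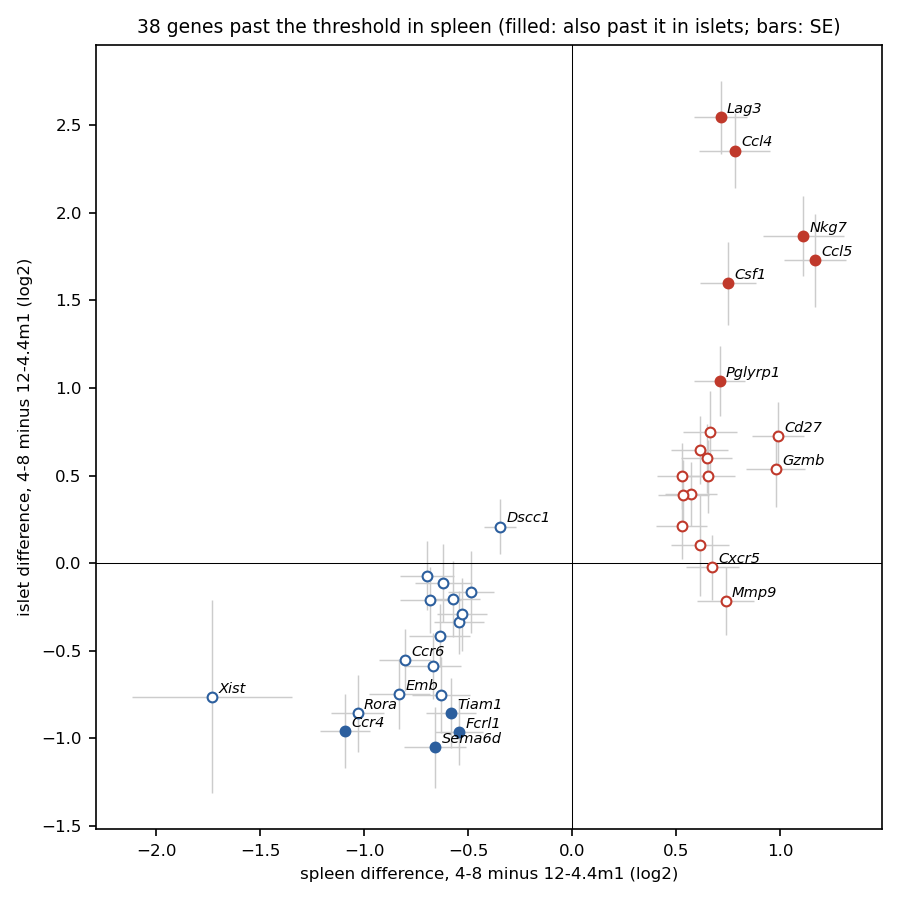
Difference in rlog value, 4-8 minus 12-4.4m1 (log2), in islets (vertical axis) against spleen (horizontal axis) for the 38 genes past the threshold in spleen that were tested in both; red genes rose and blue genes fell in spleen, filled points also passed in islets, and bars are SE. Lag3 and Ccl4 lie highest at 2.55 and 2.36 in islets, and Cxcr5, Mmp9 and Dscc1 have opposite signs.

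The calls were then recomputed with the sex-linked levels in view. With the Xist level of each library in the fit, 19 genes passed (11 higher, 8 lower), 13 of them among the 39: Ccr4, Rora, Cd27, Ccl5, Gzmb, Nkg7, Emb, Lag3, Zfp53, Slamf7, Fasl, Ccl4 and Cd226. Ccr6 was -0.70 (limma adjusted p = 0.0855) and Pglyrp1 0.69 (limma adjusted p = 0.0773) in that fit, and did not pass. Of the genes named above as not passing, 4 passed there: Cxcr4 at -1.32 (limma adjusted p = 0.00334), Il1rl1 at -1.28 (limma adjusted p = 0.00421), Itgb1 at -1.06 (limma adjusted p = 0.0327) and Tigit at 0.80 (limma adjusted p = 0.0387). The differences of Dst, Ptpn18 and Cd226 moved by over 1.5 times, to -0.41, 0.27 and -0.99. With the mean of Ddx3y and Eif2s3y in the fit instead, an alternative chosen after seeing the data, 38 passed (16 higher, 22 lower), 18 of them among the 39. Cxcr4 (-1.30, limma adjusted p = 8.94e-05), Il1rl1 (-1.12, limma adjusted p = 0.00347) and Nt5e (-0.72, limma adjusted p = 0.0216) passed there as well, and Ctsd moved from 0.61 to 0.37. With 12-4.4m1 replicates 2 and 3 left out, also chosen after seeing the data, 43 passed (15 higher, 28 lower), 16 of them among the 39, and all 39 kept their sign. In that fit the lone 12-4.4m1 library is assumed to vary like the 4-8 libraries. Ccr4 was -1.06, Rora -0.78, Ccl5 1.12 and Cd27 0.90, against -1.09, -1.03, 1.17 and 0.99 with all libraries. Apart from Xist, 4 called genes moved by over 1.5 times: Ctsd was 0.31 against 0.61, Gimap7 0.35 against 0.54, Wls -0.44 against -0.67 and Ccl4 1.20 against 0.78. Without both libraries numbered 2, 11 genes passed, 9 of them among the 39: Ccr4, Rora, Cd27, Ccl5, Gzmb, Nkg7, Fasl, Ccl4 and Tbc1d4. Xist level did not alter the sign of any of the other 38 called genes.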

How the data were processed

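Per the labels' protocols, cells were lysed in Triton X-100, cDNA was amplified, and libraries were made with Nextera XT. Per the submitters' processing notes, the tools were TopHat 1.0.0, STAR 1.1.0, Cufflinks, DESeq and DESeq2 1.1.0 on mm10 (GRCm38), with no role given. The authors deposited log2-scale values, the rlog, of each library. Per the file headers, their DESeq2 table gave the mean normalized count (a signal after size factors), a log2 fold change, a Wald score and a p-value per gene, and their Cuffdiff table gave each group's FPKM and a q-value. The total count of each library is not given in the sources used here; mean normalized counts summed to 1316677. No depth or mapping rate can be read from rlog values, and precision is given by the SE.

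Columns were matched to libraries by title. The descriptions of both spleen libraries numbered 2 name the tissue table of the opposite TCR. The titles were used, and each spleen library correlated with the column of its own title in the tissue tables (r = 0.984 to 0.993, across genes, after removing group means). The other columns were below 0, which removing the mean of 3 libraries brings about by itself and which adds nothing to the match. In the islet table the name of 1 column of 4-8 equals no title, although a library with that number has its own column there; it was used as islet 4-8. Rows of repeated symbols (4) were left out, and 0 columns.

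Genes with a mean normalized count of at least 10 were fitted with limma 3.58.1 (R 4.3.3; lmFit, eBayes with a mean-variance trend), 3 against 3 libraries, 2-sided, Benjamini-Hochberg over 9108 genes, threshold 0.05, no replicate block. With 3 against 3 libraries the smallest exact permutation p is 0.1, so that test was not used. The script was tested on simulated data. All called genes are named, with values by library, and of each list those called and up to 3 others of the smallest p; a few are not reported here. The members and gene lists were chosen with earlier results of these data known. Promoters are from RefSeq (GRCm38.p6). Alternatives were the count filter, trend, robust estimation, scaling, left-out libraries, a replicate block, covariates for Xist and Y-linked levels, and the authors' own tests.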

Additional observations from a re-analysis of the deposited data

Results flagged for a closer look

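Dscc1 lay on opposite sides in the 2 tissues. Every 4-8 library was below every 12-4.4m1 library in spleen, and every 4-8 library was above them in islets. Dscc1 differed by -0.3479 in spleen and by 0.2083 in islets (limma adjusted p = 0.0401 and 0.852), where its mean normalized count was 11.1. In islets the gap was narrow, with the lowest 4-8 library at 3.382 and the highest 12-4.4m1 library at 3.381. The difference between the tissues was not tested, since their tables were normalized separately.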

How the results depend on the processing

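Of the 39 called genes, all 39 kept their sign in the 6 fits that left out 1 library, 9 passed in all 6, 3 passed in 5 and 27 in 4 or fewer. The count of called genes ranged from 14 to 56, those higher from 8 to 22 and those lower from 6 to 34. It was 14 (8 higher, 6 lower) without 4-8 replicate 3, 23 (12 and 11) without 4-8 replicate 2 and 16 (8 and 8) without 12-4.4m1 replicate 2. Without 4-8 replicate 1, 12 were lower, and without 12-4.4m1 replicate 1, 34. It was 17 (10 and 7) with no mean-variance trend, 11 (7 and 4) without both libraries numbered 2 and 19 (11 and 8) with Xist level as covariate. The authors' deposited tables called 21 (14 and 7) by DESeq2 and 80 (39 and 41) by Cuffdiff. Quantile normalization left 26, of which 11 lower (57.7% higher, against 48.7%). The count was within 1.5 times of 39 with the filter above 0 (46), at 50 (32), with robust estimation (43) and with libraries centred on their medians (39). With a replicate block, 78 passed (36 higher, 42 lower), all 39 among them. Libraries of the same number deviated together weakly (r = 0.120, 0.0865 and 0.0748 across 9108 genes, other pairs at most 0.0078), and each correlated best with its own number. This is a hint from the data, since no label ties libraries of a number to each other. None of the called genes reversed. Small uncalled differences did, with these ranges over the 6 fits that left out 1 library: Il2ra -0.068 to 0.145, Tnfrsf18 -0.0117 to 0.150, Kdm5d -0.203 to 0.264 and Nr4a1 -0.228 to 0.156. Without both libraries numbered 2, Tnfrsf18 was -0.0346 and Nr4a1 0.0108. With Xist level, Ddx3y was -0.0866 and Nr4a1 0.384. Nr4a1 was 0.327 with Y-linked level. Without 12-4.4m1 replicates 2 and 3, Nr4a1 was 0.390, Ahr 0.0571 and Ddx3y -0.226. The cause was not tested. The depth of the libraries is not given, and rlog understates differences of genes with low counts.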
